A study of Mus musculus with 12 samples.

Results

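The GATA transcription factor family comprises Gata1, Gata2, Gata3, Gata4, Gata5 and Gata6, and the members were chosen by name, by matching the Ensembl gene identifiers of the count tables to these symbols. All 6 were found among 38924 gene rows, and all 6 were among the 14170 genes that passed the expression filter. RNA had been sequenced from cells sorted from mouse embryos at E7.25, when gastrulation is under way, and 12 libraries were analysed, 3 from each of 4 cell types. Every embryo was of the Foxa2Cre:Rosa26-YFP line, in which Cre made under the control of Foxa2 switches on a yellow fluorescent protein (YFP) reporter, so that YFP marks cells that have expressed Foxa2 and their descendants. The groups were YFP+ cardiac mesoderm, labelled as ventricular, YFP- cardiac mesoderm, labelled as non-ventricular, endoderm sorted for the surface protein EPCAM, and hematopoietic mesoderm sorted for the receptor KDR. The labels name no treatment, and they do not say whether replicates came from separate embryos or litters, so that p-values measure only the spread between these libraries, which may be technical. In such bulk samples, fewer cells of a type and less RNA per cell cannot be told apart.

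GATA factors bind DNA at the short sequence that gives the family its name, through a pair of neighbouring zinc fingers. Gata1, Gata2 and Gata3 are known chiefly from blood: Gata2 acts in blood and endothelial precursors, Gata1 drives red cell and megakaryocyte maturation, and Gata3 is best known from T cells and trophoblast. Gata4, Gata5 and Gata6 are known from heart, gut and extraembryonic endoderm, where Gata4 and Gata6 overlap in function. The factors work with partner proteins, the Friend of GATA proteins Zfpm1 and Zfpm2, the Tal1, Lyl1 and Lmo2 complex in blood, and T-box, Hand and Mef2 factors in heart.

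Between 4472800 and 7888631 reads were counted in genes in each library. Levels are given in CPM, library-size scaled counts, and a gene at 0 counts may have a level of up to that of 3 counts, 0.357 to 0.723 CPM. The labelled types were checked against marker genes. The endoderm list includes Epcam (204 to 240 CPM in endoderm) and the hematopoietic list Kdr (665 to 965 CPM in hematopoietic mesoderm). Both encode proteins used in the sort, so that part of the check was not independent of it. The summed level of 9 endoderm markers was 1336 to 1933 CPM in endoderm and at most 164 CPM elsewhere. The summed level of 9 cardiac mesoderm markers was 1070 to 1524 CPM in the 6 cardiac libraries, and that of 6 hematopoietic mesoderm markers was 1986 to 2637 CPM in hematopoietic mesoderm. The cardiac libraries also held 572 to 947 CPM of those hematopoietic markers, most of it Kdr (444 to 622 CPM). Foxa2 itself, whose history the reporter records, was at 0.416, 0 and 5.92 CPM in the YFP+ libraries and at 0 counts in all YFP- libraries. Replicate 3 of hematopoietic mesoderm stood apart from the others. Its chi-square distances to them, per degree of freedom, were 113 and 95.6, against 71.0 between the others, and it held 1007 CPM of cardiac markers against 328 and 363 CPM, and 164 CPM of endoderm markers against 24.1 and 37.2 CPM. Some of the results that rest on it, not all, are given with and without it.

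The make-up of the family differed most between hematopoietic mesoderm and the other types. Levels of different genes are compared here per length, as CPM per kb of exon. Summed over the 6 members, the level per length was 155 ± 15.5 CPM per kb (SD, n = 3) in hematopoietic mesoderm, 131 ± 12.6 in YFP+ cardiac mesoderm, 106 ± 15.7 in YFP- cardiac mesoderm and 47.3 ± 6.14 in endoderm. Endoderm had the lowest sums, 43.1 to 54.3 CPM per kb, which did not overlap with those of any other type. Gata1, Gata2 and Gata3 together took 1.85% to 14.5% of the sum in YFP+ cardiac mesoderm, 9.60% to 17.4% in YFP- cardiac mesoderm and 9.16% to 14.9% in endoderm. In hematopoietic mesoderm they took 76.2%, 64.7% and 45.5% in replicates 1, 2 and 3. Gata2 alone accounted for 46.1% ± 5.24 (SD, n = 3) of the family there. In the other 9 libraries Gata4 was the most abundant member per length in each, with 53.8% to 78.8% of the sum.

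**Figure D1:**
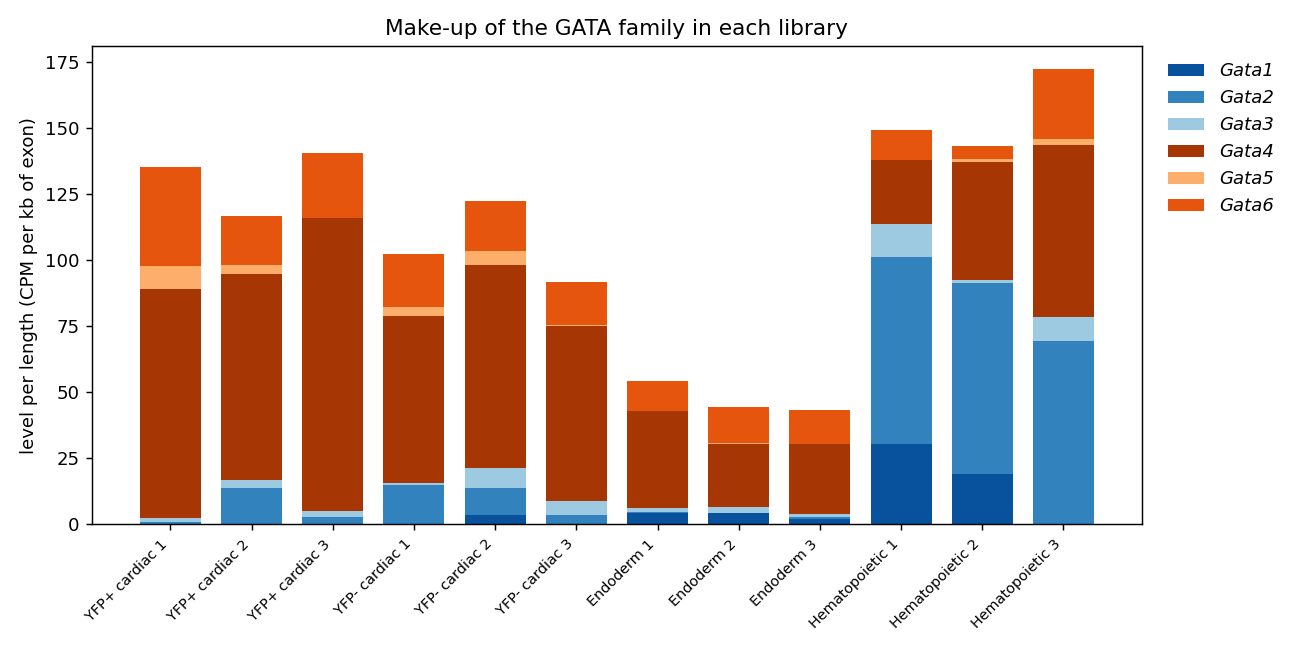
Stacked bars show the level per length (CPM per kb of exon) of the 6 GATA genes in each of the 12 libraries, Gata1 to Gata3 in blue and Gata4 to Gata6 in orange and brown. The blue part makes up 45.5% to 76.2% of the bar in hematopoietic mesoderm and at most 17.4% in the 9 other libraries.

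Set among 14029 genes ranked by level per length, the members spanned most of the range. Mean Gata4 lay above 98.1% of genes in the YFP+ and 96.9% in the YFP- cardiac fraction, above 91.1% in hematopoietic mesoderm and above 87.0% in endoderm. Mean Gata2 lay above 96.1% of genes in hematopoietic mesoderm and above 4.02% in endoderm. Gata6 lay above 67.1% to 83.4% of genes, Gata3 above 20.5% to 54.1%, Gata1 above 6.32% to 71.97% and Gata5 above 0.513% to 40.5%, depending on the type. Gata4 and Gata6 were above the median gene in every type, with a Gata4 to Gata6 ratio per length of 1.73 to 9.21 in the 12 libraries.

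The 4 types form 6 pairs, and each was tested with edgeR's quasi-likelihood test and Benjamini-Hochberg adjustment over all genes. A gene was called at an adjusted p under 0.05. Between YFP+ and YFP- cardiac mesoderm 0 of 6 members were called, as were 0% of all genes. In that pair, 1062 of the 14170 genes had an unadjusted p under 0.05 by edgeR, of which 0 were members, and DESeq2 called 229 genes and 0 members. Against endoderm, 2 of 6 members were called in YFP+ cardiac mesoderm (Gata2 and Gata4, against 1.54% of all genes) and 1 in YFP- cardiac mesoderm (Gata2, against 1.31%). Against hematopoietic mesoderm, 0 of 6 members were called in YFP+ cardiac mesoderm (1.79% of all genes) and 0 in YFP- cardiac mesoderm (0.593%). In those 2 pairs edgeR gave an unadjusted p under 0.05 for 3 members and 1 member, and for 2766 and 2472 of the 14170 genes. DESeq2 called 3 members and 1 member there, among 1817 and 1351 genes. Between endoderm and hematopoietic mesoderm 1 of 6 was called (Gata2, against 5.65%).

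The libraries of a pair of types did not overlap for 1 of 6 members between the cardiac fractions (Gata4), against 12.1% of all genes. YFP+ cardiac mesoderm and endoderm did not overlap for 4 of 6 (Gata1, Gata2, Gata4 and Gata6), against 30.3%, and YFP- cardiac mesoderm and endoderm for 4 of 6 (Gata2, Gata4, Gata5 and Gata6), against 29.4%. For hematopoietic mesoderm the count was 2 of 6 against YFP+ cardiac mesoderm (Gata2 and Gata4; all genes 14.0%), 1 of 6 against YFP- cardiac mesoderm (Gata2; 18.6%) and 1 of 6 against endoderm (Gata2; 34.3%). Pairs that include the same type share its libraries. The median log2 fold change of the 6 members was 1.38 between YFP+ cardiac mesoderm and endoderm and 1.31 between YFP- cardiac mesoderm and endoderm, where the median over all genes was 0.01 in each. Between endoderm and hematopoietic mesoderm the members' median was -2.16 and that of all genes 0.07. In the pairs YFP+ minus YFP-, YFP+ minus hematopoietic and YFP- minus hematopoietic mesoderm, the members' medians were -0.14, -0.37 and -0.15, beside 0.03, 0.03 and 0.02 over all genes.

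**Figure D2:**
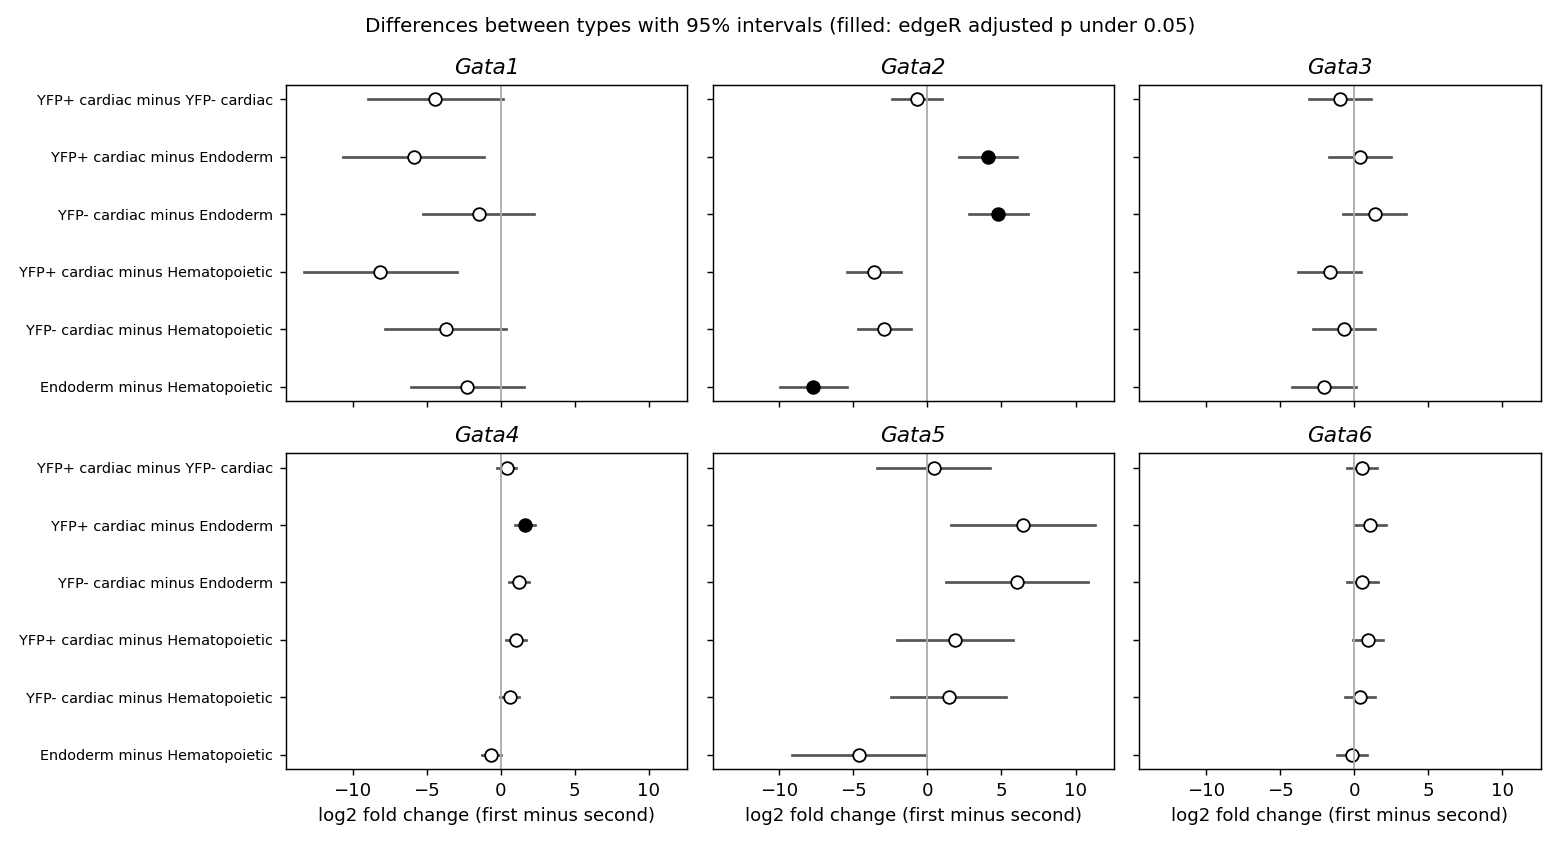
Each panel gives, for 1 GATA gene, the log2 fold change between the 6 pairs of types (x axis, first type minus second) as a circle with its 95% interval from the edgeR fit. Filled circles are the 4 differences with an adjusted p under 0.05: Gata2 in 3 pairs that include endoderm and Gata4 between YFP+ cardiac mesoderm and endoderm.

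Gata2 was the member with the clearest pattern, high in hematopoietic mesoderm, intermediate in cardiac mesoderm and nearly absent from endoderm. The gene lies on the plus strand of chromosome 6, 88193891 to 88207032 (GRCm38), and encodes a factor needed for the formation of early blood precursors. Its level was 382, 389 and 375 CPM in replicates 1, 2 and 3 of hematopoietic mesoderm, the narrowest relative spread that any member showed in any type. It was 79.6, 54.5 and 18.3 CPM in YFP- cardiac mesoderm, 4.79, 73.8 and 15.2 CPM in YFP+ cardiac mesoderm, and 1.27, 0.777 and 3.33 CPM in endoderm, where 6 to 28 reads were counted. The hematopoietic libraries were above all others and the endoderm libraries below all others, whereas the 2 cardiac fractions overlapped.

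RefSeq gives Gata2 a start site at each of 2 places, the upstream of which coincides with the gene's first base above, and gives Gata1 a start inside its annotated gene. The 250 bases before these starts are shown because Gata2 gave the clearest difference between types and Gata1 had the next highest mean level per length in hematopoietic mesoderm among Gata1 to Gata3. They are from RefSeq on GRCm38.p6, read 5′ to 3′ on the gene's strand, and capitals mark matches to the E-box CANNTG, the kind of site that Tal1 binds with its E-protein partners. The Gata2 window is chr6:88193641-88193890 on the plus strand and the Gata1 window is chrX:7967911-7968160 on the minus strand.
Gata2: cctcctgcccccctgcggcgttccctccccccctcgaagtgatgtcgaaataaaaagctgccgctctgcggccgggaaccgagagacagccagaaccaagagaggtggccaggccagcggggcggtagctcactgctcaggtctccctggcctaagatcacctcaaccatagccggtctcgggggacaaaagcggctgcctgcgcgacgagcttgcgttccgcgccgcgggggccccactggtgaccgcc
Gata1: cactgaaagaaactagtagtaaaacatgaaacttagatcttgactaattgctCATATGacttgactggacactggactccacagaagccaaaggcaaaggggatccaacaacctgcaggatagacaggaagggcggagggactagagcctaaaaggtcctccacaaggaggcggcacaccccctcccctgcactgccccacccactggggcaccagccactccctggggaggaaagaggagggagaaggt

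Neither window holds a GATA motif, searched on both strands as GATA preceded by A or T and followed by A or G, and 26.5% of 32851 RefSeq promoter windows of the same length hold at least 1. None of the 5 windows searched for 4 of the 6 members (Gata1, Gata2, Gata3 and Gata5) holds one. Gata4 and Gata6 were not searched. The E-box, which reads alike on both strands, occurs 1 time in the Gata1 window (as CATATG), 1 time in the Gata5 window (as CACGTG) and not in the Gata2 or Gata3 windows, and 66.2% of all windows hold it. The windows of Gata2, Gata3 and Gata5 are 67.2% to 74% G and C, that of Gata1 54%, and the median window 52.4%. These matches describe letters only and were not tested for binding.

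Gata2 was lower in endoderm than in hematopoietic mesoderm, with a difference of -7.70 ± 1.05 on the log2 scale (estimate ± SE; edgeR adjusted p = 0.00156), and this call held in all 20 alternative fits. It was higher in YFP- cardiac mesoderm than in endoderm by 4.79 ± 0.93 (edgeR adjusted p = 0.0229) and higher in YFP+ cardiac mesoderm than in endoderm by 4.09 ± 0.91 (edgeR adjusted p = 0.0427). Between hematopoietic and cardiac mesoderm the libraries did not overlap, but the differences missed the threshold, with log2 fold changes of -3.61 ± 0.85 for YFP+ (edgeR adjusted p = 0.0514) and -2.91 ± 0.82 for YFP- cardiac mesoderm (edgeR adjusted p = 0.122). DESeq2 called both, with adjusted p = 0.000462 and 0.00963, and the alternatives as a whole ran from 0.000462 to 0.192 and from 0.00387 to 0.292. The 2 cardiac fractions differed by -0.70 ± 0.78 (YFP+ minus YFP-; edgeR adjusted p = 0.940), with a 95% interval of -2.37 to 0.98.

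The cardiac calls of Gata2 against endoderm held in 14 of 20 alternatives for YFP- and in 10 of 20 for YFP+ cardiac mesoderm. With a block for the replicate number both were lost (edgeR adjusted p = 0.0608 for YFP- and 0.114 for YFP+), and the YFP+ call was also lost with limma voom (adjusted p = 0.0585) and with only the 2 types fitted (edgeR adjusted p = 0.0912). The other losses came from leaving out single libraries. For YFP- cardiac mesoderm the edgeR adjusted p was 0.0901 without its replicate 1, 0.0704 without its replicate 2, and 0.154, 0.144 and 0.0702 without endoderm replicates 1, 2 and 3. For YFP+ cardiac mesoderm it was 0.146 without its replicate 2, 0.0625 and 0.0643 without YFP- replicates 1 and 2, 0.216, 0.204 and 0.104 without endoderm replicates 1, 2 and 3, and 0.0538 without hematopoietic replicate 2. Replicate 2 of YFP+ cardiac mesoderm, which had the highest Gata2 level of its group, also stood out in markers of neighbouring cell types. The summed level of 5 endothelial markers was 73.6 CPM there, most of it Pecam1 (58.9 CPM) and Tek (13.7 CPM) with Cdh5 at 0.911 CPM, against 2.91 and 4.44 CPM in the other YFP+ libraries, 3.91 to 16.9 CPM in YFP- cardiac mesoderm, 2.38 to 5.31 CPM in endoderm and 268 to 522 CPM in hematopoietic mesoderm. The 6 hematopoietic markers summed to 947 CPM, against 572 and 589 CPM in the other YFP+ libraries. Their part in the Gata2 level was not tested. Without that library the Gata2 difference from endoderm was 2.45, and the difference from hematopoietic mesoderm was -5.25 and passed the threshold (edgeR adjusted p = 0.0136).

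**Figure D3:**
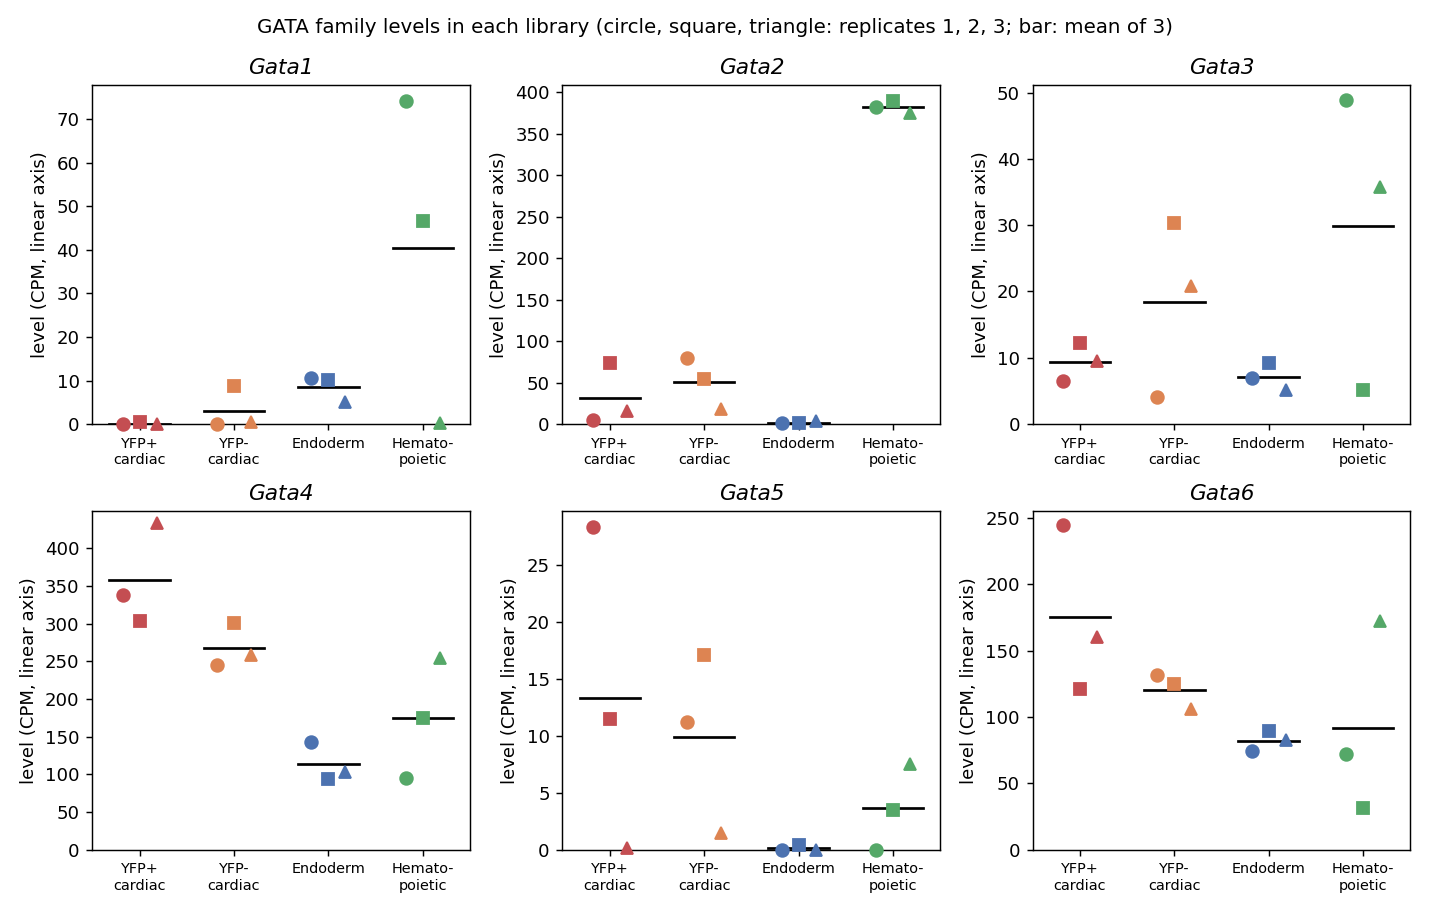
Each panel shows 1 GATA gene with its level in CPM (y axis, linear, from 0) in the 3 libraries of each cell type, as circle, square and triangle for replicates 1, 2 and 3, and the mean as a bar. Gata2 lies at 375 to 389 CPM in hematopoietic mesoderm and at most 79.6 CPM elsewhere, Gata4 is lowest on average in endoderm, and Gata1 is at 0.210 CPM in hematopoietic replicate 3 beside 74.2 and 46.6 CPM in replicates 1 and 2.

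Gata1, the factor of red cell maturation, was present in 2 of 3 hematopoietic libraries and low in the cardiac ones. The gene lies on the minus strand of the X chromosome, 7959260 to 7978071 (GRCm38). Its level was 74.2, 46.6 and 0.210 CPM in hematopoietic mesoderm, from 308, 269 and 1 counts. Endoderm followed with 10.5, 10.1 and 4.99 CPM, YFP- cardiac mesoderm with 0, 8.69 and 0.435 CPM, and YFP+ cardiac mesoderm with 0, 0.365 and 0 CPM, 2 counts in all. Endoderm was above YFP+ cardiac mesoderm in every library. Hematopoietic mesoderm overlapped with every other type through its replicate 3 alone.

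With 2 counts in the YFP+ libraries, Gata1 differences from them rest on counting intervals. The ratio of the summed levels was 65.1 (95% counting interval 17.8 to 541) for endoderm over YFP+ cardiac mesoderm, 309 (85.1 to 2556) for hematopoietic over YFP+ cardiac mesoderm and 25.5 (6.78 to 215) for YFP- over YFP+ cardiac mesoderm. These intervals cover counting error only, not the spread between libraries. Across libraries none of the 3 differences passed edgeR's threshold (edgeR adjusted p = 0.194, 0.104 and 0.671), while DESeq2 gave adjusted p = 0.0317, 0.000870 and 0.320, and the alternatives spanned 0.0317 to 0.367, 0.000870 to 0.302 and 0.320 to 1. Without hematopoietic replicate 3 the edgeR adjusted p of YFP+ cardiac against hematopoietic mesoderm was 0.0413, and with only the 2 types fitted that of YFP+ cardiac mesoderm against endoderm was 0.0457. Endoderm minus hematopoietic mesoderm was -2.24 ± 1.76 (edgeR adjusted p = 0.515).

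The endoderm libraries thus held the second highest mean of Gata1, 8.53 ± 3.07 CPM (SD, n = 3), with 42 to 78 reads in each. The hematopoietic mesoderm markers summed to 37.0 to 79.9 CPM in the same libraries, against 1986 to 2637 CPM in hematopoietic mesoderm, and Gfi1b, Klf1 and Hbb-bh1 were at 0 counts in them. Of the other erythroid genes, Alas2 was at 9.70, 17.2 and 11.9 CPM in endoderm, Car2 at 209 to 268 CPM and Epor at 0, 0.388 and 0.475 CPM. The 8 trophoblast markers summed to 19.0 to 93.9 CPM in endoderm, with Gcm1, Tpbpa and Prl3d1 at 0 counts, and the 5 epiblast and ectoderm markers to 481 to 533 CPM. Their part in the Gata1 level was not tested.

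Gata3 had levels that overlapped between all types. It lies on the minus strand of chromosome 2, 9857078 to 9890034 (GRCm38). Its level was 48.9, 5.20 and 35.7 CPM in hematopoietic mesoderm, 4.02, 30.3 and 20.9 CPM in YFP- cardiac mesoderm, 6.45, 12.2 and 9.44 CPM in YFP+ cardiac mesoderm and 6.998, 9.19 and 5.11 CPM in endoderm. The lowest library of hematopoietic and of YFP- cardiac mesoderm lay within or below the range of endoderm, so that no pair of types was free of overlap. The log2 difference furthest from 0 was -2.07 ± 1.00 for endoderm minus hematopoietic mesoderm (edgeR adjusted p = 0.241; alternatives 0.0811 to 0.548). The antisense gene Gm13256 shares 155 exon bases with Gata3, but it had at most 1 count in a library.

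Most of the hematopoietic partners were, like Gata2, high in hematopoietic mesoderm and low in endoderm. Of 13 genes chosen as partners of GATA factors in blood, 12 were tested. Between endoderm and hematopoietic mesoderm 7 of the 12 were called lower in endoderm and 0 higher, against 5.65% of all genes called. The median log2 fold change was -4.48 over the 12 against 0.07 over all genes. Without hematopoietic replicate 3, 7 of the 12 were called as well. Lmo4 and Tcf12 were not called and had higher means in endoderm (72.2 and 370 CPM) than in hematopoietic mesoderm (41.7 and 268 CPM). Ldb1 (73.3 against 98.5 CPM), Tcf3 (141 against 159 CPM) and Cbfa2t3 (2.71 against 66.9 CPM) were lower in endoderm on average but not called. Tal1, the basic helix-loop-helix factor that forms a complex with GATA factors, was at 471, 356 and 270 CPM in hematopoietic mesoderm, 13.7, 174 and 22.0 CPM in YFP+ and 61.3, 85.8 and 19.1 CPM in YFP- cardiac mesoderm, and 0.795, 0.647 and 3.09 CPM in endoderm. As for Gata2, the hematopoietic libraries were above and the endoderm libraries below all others, and the highest YFP+ library was replicate 2. The log2 fold change of Tal1 for endoderm minus hematopoietic mesoderm was -7.87 ± 1.13 (edgeR adjusted p = 0.00202).

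The 6 others called lower in endoderm were Erg, Fli1, Lyl1, Runx1, Lmo2 and Zfpm1. The calls of Runx1, Lmo2 and Zfpm1 held in 18, 13 and 13 of 20 alternatives. The log2 fold change of the ETS factor Fli1 was -8.69 ± 1.25 (edgeR adjusted p = 0.00202; called in 20 of 20 alternatives). Its relative Erg, with 0 counts in every endoderm library and 52.0, 97.5 and 0.840 CPM in hematopoietic mesoderm, was called in 9 of 19 alternatives (edgeR adjusted p = 0.0444). Lyl1, a close relative of Tal1, differed by -6.95 ± 1.57 (edgeR adjusted p = 0.0265; called in 17 of 20). Zfpm1, the first Friend of GATA protein, was at 76.1, 90.9 and 33.8 CPM in hematopoietic mesoderm and at 15.9, 6.60 and 13.7 CPM in endoderm. In the cardiac fractions Zfpm1 was at 37.2 to 75.9 CPM, which overlapped with hematopoietic mesoderm and not with endoderm, though neither difference from endoderm passed the threshold (edgeR adjusted p = 0.0737 for YFP+ and 0.0654 for YFP-).

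Against hematopoietic mesoderm, 4 of the 12 partners were lower in YFP+ cardiac mesoderm (Lyl1, Lmo2, Fli1 and Runx1, median of the list -2.74). In YFP- cardiac mesoderm 1 was lower (Runx1, median -2.79), and 0 were higher in either. Over all genes 1.79% and 0.593% were called in these pairs, in either direction. The YFP+ calls of Lyl1, Lmo2 and Fli1 held in 9, 9 and 7 of 20 alternatives. Runx1, the core factor of definitive blood formation, was at 739, 949 and 512 CPM in hematopoietic mesoderm, 4.79, 96.4 and 22.9 CPM in YFP+ and 39.0, 39.5 and 21.4 CPM in YFP- cardiac mesoderm. Its log2 fold changes were -4.14 ± 0.78 for YFP+ (edgeR adjusted p = 0.0218; called in 17 of 20 alternatives) and -4.46 ± 0.79 for YFP- (edgeR adjusted p = 0.0290; called in 13 of 20). Against endoderm, Tal1 was higher in YFP+ cardiac mesoderm (5.49 ± 1.03, edgeR adjusted p = 0.0167), and Tal1 and Fli1 were higher in YFP- cardiac mesoderm (5.15 ± 1.02 and 4.88 ± 1.09, edgeR adjusted p = 0.0238 and 0.0484). These 3 calls held in 17, 14 and 8 of 20 alternatives. Between the cardiac fractions edgeR called 0 of the 12, with 2 at an unadjusted p under 0.05 (1062 of 14170 over all genes). DESeq2 called 1 (229 over all genes). Without YFP+ replicate 2 the edgeR counts were 3 and 1 against hematopoietic mesoderm and 1 in each fraction against endoderm. Without hematopoietic replicate 3 they were 4 and 2 against hematopoietic mesoderm and 3 in each fraction against endoderm.

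Most of the genes that GATA1 is known to switch on in red cells did not pass the expression filter. Of 14 such genes, 3 passed the expression filter (Nfe2, Alas2 and Car2) and 0 were called by edgeR in any of the 6 pairs, with at most 2 at an unadjusted p under 0.05 and at most 2 called by DESeq2 in a pair. Hba-x, Hbb-y, Hba-a1, Hba-a2, Slc4a1 and Hemgn were at 0 counts in all 12 libraries, and the filter leaves out genes that few libraries express. Car2, a carbonic anhydrase gene, was at 90.8 to 268 CPM in all 12 libraries. Alas2, which encodes the erythroid enzyme of heme synthesis, was at 5.41, 29.0 and 47.2 CPM in YFP+ cardiac mesoderm against 5.04 to 7.62 CPM in hematopoietic mesoderm. In YFP- cardiac mesoderm Alas2 was at 1.17, 0.981 and 4.78 CPM, below every YFP+ library. EdgeR did not call that difference between the cardiac fractions (3.54 ± 1.09, edgeR adjusted p = 0.626), and 1 of 20 alternatives did. The repressor Gfi1b was at 19.5, 22.9 and 0.210 CPM in hematopoietic mesoderm and at 0 counts in the other 9 libraries. The embryonic globin gene Hbb-bh1 was at 11.3, 7.27 and 0 CPM, the erythroid factor Klf1 at 1.45, 21.8 and 0 CPM and the erythropoietin receptor gene Epor at 0, 11.4 and 0 CPM in hematopoietic mesoderm. Replicate 3, where Gata1 had 1 count, had 1 count of Gfi1b and 0 of the other 3 genes. These 4 genes did not pass the filter and so had no test in the fit of all 12 libraries. Among alternatives that did test them, Gfi1b was called in 1 of 12 for endoderm minus hematopoietic mesoderm (lowest adjusted p = 0.0352) and in none for the other pairs, and Hbb-bh1 (tested in 12), Klf1 (in 2) and Epor (in 1) were called in none.

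**Figure D4:**
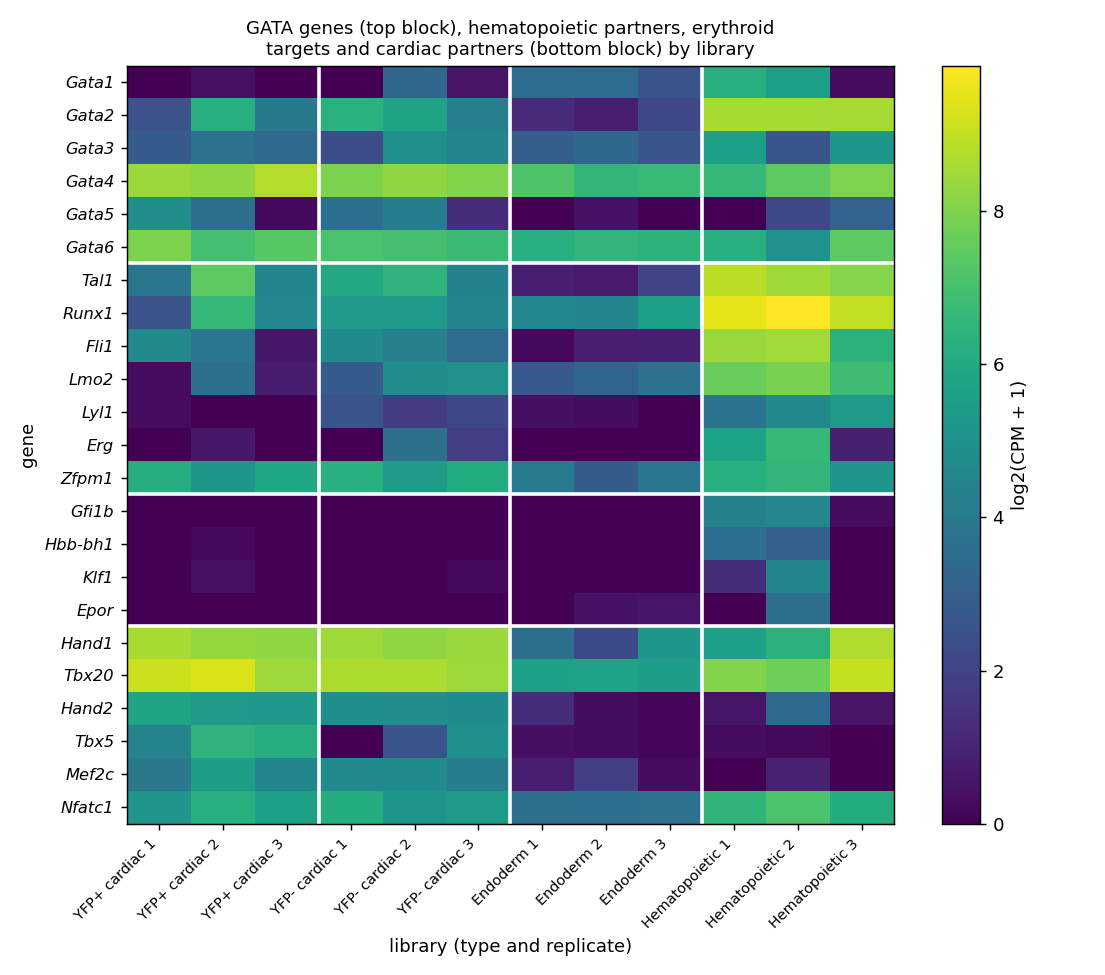
The heat map gives log2(CPM + 1) in the 12 libraries for the 6 GATA genes and, in separate blocks, 7 hematopoietic partners, 4 erythroid targets and 6 cardiac partners that were selected for display after their values were seen. Tal1, like Gata2, is high in hematopoietic mesoderm and low in endoderm, and the erythroid block is above 0.475 CPM in hematopoietic replicates 1 and 2 only. Hand1 is high in the 6 cardiac libraries and in hematopoietic replicate 3. Tbx20 is high in those libraries and also in hematopoietic replicates 1 and 2, at 263 and 206 CPM, against 44.0 to 51.1 CPM in endoderm.

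Gata4, a central regulator of heart formation, was highest in YFP+ cardiac mesoderm and lowest on average in endoderm. The gene lies on the minus strand of chromosome 14, 63198922 to 63271692 (GRCm38). Its level was 338, 303 and 433 CPM in YFP+ cardiac mesoderm, 245.5, 300.1 and 258 CPM in YFP- cardiac mesoderm, 95.6, 174 and 255 CPM in hematopoietic mesoderm and 143, 93.3 and 103 CPM in endoderm. The YFP+ libraries were above all 9 others and the endoderm libraries below all 6 cardiac ones, while hematopoietic mesoderm overlapped with both endoderm and YFP- cardiac mesoderm. The highest YFP- library lay just under the lowest YFP+ library.

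Gata4 was 3.16-fold higher in YFP+ cardiac mesoderm than in endoderm, 1.66 ± 0.31 on the log2 scale (edgeR adjusted p = 0.0161). The call held in 17 of 20 alternatives and was lost without YFP+ replicate 3 (0.0598) and without endoderm replicates 2 (0.115) and 3 (0.111). For YFP- cardiac mesoderm the difference from endoderm was 1.24 ± 0.30 and missed the threshold (edgeR adjusted p = 0.0724), although DESeq2, limma voom and the fit of these 2 types alone called it (adjusted p = 0.0122, 0.000380 and 0.00356), as did edgeR without hematopoietic replicate 1 (0.0141) or 3 (0.0205). The difference between the cardiac fractions was 0.42 ± 0.30 (edgeR adjusted p = 0.846), with a 95% interval of -0.23 to 1.07. YFP+ cardiac exceeded hematopoietic mesoderm by 1.03 ± 0.30 (edgeR adjusted p = 0.104). Without hematopoietic replicate 3, which had the highest Gata4 level and the most cardiac marker RNA of its group, that difference was 1.41 (edgeR adjusted p = 0.0242). The part of the cardiac markers in the Gata4 level of that library was not tested.

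Gata6, a relative of Gata4 in heart and endoderm, had a flatter profile. It lies on the plus strand of chromosome 18, 11052064 to 11085635 (GRCm38). Its level was 245, 121 and 160.3 CPM in YFP+ cardiac mesoderm, 131, 125 and 106 CPM in YFP- cardiac mesoderm, 71.8, 31.5 and 172 CPM in hematopoietic mesoderm and 74.1, 89.7 and 83.0 CPM in endoderm. The endoderm libraries were below all 6 cardiac libraries, and the cardiac fractions overlapped. The widest spread was in hematopoietic mesoderm, where replicate 3 was above every YFP- and endoderm library and replicate 2 below every other library of the study.

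The Gata6 difference between YFP+ cardiac mesoderm and endoderm was 1.09 ± 0.48 on the log2 scale (edgeR adjusted p = 0.283), with a 95% interval of 0.06 to 2.13, and limma voom called it (adjusted p = 0.0457; alternatives 0.0457 to 0.570). For YFP- cardiac mesoderm against endoderm it was 0.55 ± 0.48 (edgeR adjusted p = 0.954) and for YFP+ against YFP- cardiac mesoderm 0.54 ± 0.48 (edgeR adjusted p = 0.897). Against hematopoietic mesoderm the difference of YFP+ cardiac mesoderm was 0.93 ± 0.48 (edgeR adjusted p = 0.306), and without hematopoietic replicate 3 it was 1.77 (edgeR adjusted p = 0.0392). Endoderm and hematopoietic mesoderm differed by -0.16 ± 0.48 (edgeR adjusted p = 0.897), which turned to 0.68 without that library. The opposite-strand gene 1010001N08Rik shares 93 exon bases with Gata6 and had 1 to 148 counts, against 182 to 1176 for Gata6, so that a small part of either count is uncertain without a known strand setting.

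Gata5, which is known from endocardium and endoderm, was the least abundant of the cardiac members and was detected mainly in cardiac mesoderm. It lies on the minus strand of chromosome 2, 180325133 to 180334699 (GRCm38). Its level was 28.3, 11.5 and 0.185 CPM in YFP+ cardiac mesoderm, from 136, 63 and 1 counts, and 11.2, 17.1 and 1.45 CPM in YFP- cardiac mesoderm. It was 0, 3.46 and 7.56 CPM in hematopoietic mesoderm and 0, 0.388 and 0 CPM in endoderm, 3 counts in all. The YFP- libraries lay above all endoderm libraries, and every other pair of types overlapped. In both cardiac fractions replicate 3 was the lowest library.

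The ratio of the summed Gata5 levels to those of endoderm was 95.3 (95% counting interval 32.1 to 466) for YFP+ cardiac, 74.3 (25.1 to 364) for YFP- cardiac and 28.5 (9.27 to 142) for hematopoietic mesoderm, counting error only. None passed edgeR's threshold across libraries (edgeR adjusted p = 0.168, 0.283 and 0.210), and DESeq2 gave adjusted p = 0.0115, 0.0279 and 0.0739, with alternatives from 0.0115 to 0.432, from 0.0134 to 0.694 and from 0.0739 to 0.448. The cardiac fractions differed by 0.42 ± 1.76 (edgeR adjusted p = 1), a difference whose sign turned in 3 alternatives. The antisense gene Gata5os shares 258 exon bases with Gata5 and had 0 to 28 counts. It had 28 in YFP+ replicate 2 and 12 in YFP+ replicate 3, where Gata5 had 63 and 1. Reads of both genes may be mixed in these libraries.

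Gata1 in hematopoietic mesoderm and Gata5 in YFP+ cardiac mesoderm each reached 100 counts in 1 library while another library of that type held 3 or fewer. Of all genes that reached 100 counts in a type, 14.96% were uneven in this way in hematopoietic mesoderm, 9.30% in YFP+ cardiac mesoderm, 3.48% in YFP- cardiac mesoderm and 0.518% in endoderm.

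Some of the cardiac partners were, like Gata4, higher in YFP+ cardiac mesoderm than in endoderm. Of 13 chosen partners 12 were tested, and 4 were higher in YFP+ cardiac mesoderm than in endoderm (Hand2, Hand1, Tbx20 and Nfatc1) and 0 lower. The median log2 fold change was 2.97 over the 12 against 0.01 over all genes, of which 1.54% were called in either direction. The T-box factor Tbx20 was at 558, 664 and 344 CPM in YFP+ and 408, 409 and 349 CPM in YFP- cardiac mesoderm, and at 49.0, 51.1 and 44.0 CPM in endoderm. It was higher than in endoderm by 3.44 ± 0.33 in YFP+ (edgeR adjusted p = 0.000183) and 3.02 ± 0.33 in YFP- cardiac mesoderm (edgeR adjusted p = 0.000374), in all 20 alternatives. Hand1, a basic helix-loop-helix factor of early heart and extraembryonic mesoderm, was higher by 4.27 ± 0.84 and 4.26 ± 0.84 (edgeR adjusted p = 0.0231 and 0.0240; called in 16 and 15 of 20 alternatives). The YFP+ calls of Hand2 and Nfatc1 held in 9 and 7 of 20. Nkx2-5, an early heart homeobox gene, was at 21.9, 0.906 and 25.2 CPM in endoderm, at 1.25 to 3.15 CPM in YFP+ and at 0.560 to 9.05 CPM in YFP- cardiac mesoderm, and was not called. In YFP- cardiac mesoderm Tbx20 and Hand1 were the 2 partners called (1.31% of all genes), with a median of 2.96 over the list. Without YFP+ replicate 2 the counts against endoderm were 1 in YFP+ and 2 in YFP- cardiac mesoderm, and without hematopoietic replicate 3 they were 5 and 4.

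Against hematopoietic mesoderm, Tbx5, a T-box factor that pairs with Gata4 in the heart, was the 1 partner called in YFP+ cardiac mesoderm, higher by 8.55 ± 1.94 (edgeR adjusted p = 0.0479; called in 6 of 20 alternatives, and 0 partners without YFP+ replicate 2). It was at 20.2, 85.5 and 71.1 CPM there, at 0, 4.90 and 29.98 CPM in YFP- cardiac mesoderm, and at 0.241, 0.173 and 0 CPM in hematopoietic mesoderm. Over all genes edgeR called 1.79% in YFP+ cardiac against hematopoietic mesoderm. In YFP- cardiac against hematopoietic mesoderm 0 of the 12 were called by edgeR (0.593% of all genes) and 5 by DESeq2 (1351 over all genes). An unadjusted edgeR p under 0.05 was found for 5 of the 12 (2472 of 14170 over all genes). Mef2c had the lowest (6.16 ± 1.52, edgeR adjusted p = 0.0884, DESeq2 and other alternatives from 4.05e-06 to 0.211). Hand1, Nfatc1 and Tbx20 were lower in endoderm than in hematopoietic mesoderm, with log2 fold changes of -3.39 ± 0.81, -3.05 ± 0.52 and -2.77 ± 0.33 (edgeR adjusted p = 0.0325, 0.00600 and 0.000582; the Hand1 call held in 14 of 20 alternatives). These were 3 of the 12, against 5.65% of all genes called in that pair. In hematopoietic mesoderm Hand1 was at 47.5, 81.4 and 417 CPM and Tbx20 at 263, 206 and 518 CPM, both highest in replicate 3. Between the cardiac fractions 0 of the 12 were called by edgeR or DESeq2 and 0 had an unadjusted edgeR p under 0.05.

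Some of the endoderm genes that Gata4 and Gata6 are known to act with were higher in endoderm, where both factors were below their level in every cardiac library. Of 18 such genes, all tested, 8 were lower in YFP+ and 9 in YFP- cardiac mesoderm than in endoderm and 0 higher, with medians of -4.14 and -7.43. Over all genes 1.54% and 1.31% were called in these pairs, in either direction. Hnf4a, a nuclear receptor of visceral endoderm, was at 196, 77.7 and 147 CPM in endoderm and at most 1.48 CPM in the 9 other libraries. Its log2 fold changes against endoderm were -7.60 ± 1.09 in YFP+ (edgeR adjusted p = 0.00313) and -10.17 ± 1.26 in YFP- cardiac mesoderm (edgeR adjusted p = 0.00114). Dab2, an endocytic adaptor, was at 512 to 1095 CPM in endoderm and 40.2 to 208 CPM elsewhere. The laminin gene Lama1 was not called, at 308, 137 and 98.3 CPM in YFP+ cardiac mesoderm and 64.1, 28.7 and 56.3 CPM in endoderm. Against hematopoietic mesoderm, where 5.65% of all genes were called, 10 of the 18 were higher in endoderm and 1 was lower. That 1 was Sox7, a factor shared by extraembryonic endoderm and endothelial precursors, at 7.32, 4.53 and 3.80 CPM in endoderm and at 226, 337 and 395 CPM in hematopoietic mesoderm (-5.94 ± 1.11, edgeR adjusted p = 0.0104; called in 17 of 20 alternatives).

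In the cardiac fractions against hematopoietic mesoderm, Sox7 was lower in both (-5.40 ± 1.08 for YFP+ and -7.33 ± 1.20 for YFP-, edgeR adjusted p = 0.0302 and 0.0209; called in 13 and 15 of 20 alternatives), and Cer1, a secreted Nodal and BMP antagonist, was higher in YFP+ cardiac mesoderm (3.25 ± 0.57, edgeR adjusted p = 0.0148; called in 18 of 20). Cer1 was at 31.2, 10.4 and 67.7 CPM in the YFP+ libraries, 2.35, 4.76 and 3.77 CPM in the YFP- libraries and 357 to 478 CPM in endoderm. The 9 endoderm markers summed to 21.5 to 113 CPM in the YFP+ and 29.3 to 101 CPM in the YFP- libraries, and their part in these levels was not tested. Between the cardiac fractions edgeR called 0 of the 18, with 7 at an unadjusted p under 0.05 (1062 of 14170 over all genes). DESeq2 called 4 (229 over all genes). Without hematopoietic replicate 3, 10 and 12 of the 18 were called in YFP+ and YFP- cardiac mesoderm against endoderm.

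Of the other genes with a GATA-type zinc finger, among them chromatin proteins of the Mta and Gatad2 families, 9 were tested. Only 1 was called in any pair, between endoderm and hematopoietic mesoderm, where 5.65% of all genes were called. Trps1, a repressor that binds GATA sites, was at 39.6, 54.6 and 23.1 CPM in endoderm and at 161, 132 and 111 CPM in hematopoietic mesoderm (endoderm minus hematopoietic -1.79 ± 0.39, edgeR adjusted p = 0.0241; called in 17 of 20 alternatives). The summed level of the 9 was 1398 to 2241 CPM over all 12 libraries. Of 13 trophoblast and extraembryonic ectoderm genes, where Gata2 and Gata3 are also known to act, 8 were tested. Again 1 was called in any pair, between endoderm and hematopoietic mesoderm (5.65% of all genes). That was Krt7, at 10.2, 16.3 and 18.3 CPM in endoderm and at most 0.241 CPM elsewhere (endoderm minus hematopoietic 7.31 ± 1.89, edgeR adjusted p = 0.0473; called in 5 of 19 alternatives).

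Genes with a profile like that of each member were sought by Pearson's r of log2(CPM + 1) over the 12 libraries. The search covered 10330 genes that averaged at least 5 CPM, after genes without a symbol, predicted genes, RIKEN-named genes and pseudogenes were left out. The r values describe 12 libraries that share their cell types and their scaling, and carry no test. The gene most like Gata2 was Tal1 (r = 0.98), followed by Sept2 and Kat6a (0.95 each). Among the genes most like Gata4 were Rasgrp3 and Dusp9 (0.95 each). The genes most like Gata6 were Fzr1 (0.94), Rnf220 and Akr1b10 (0.91 each).

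For the sparser members the closest genes were less alike. They were BC046401 (0.92), Arl6ip5 and Tmed7 (0.89 each) for Gata1, Trim39 and Pced1a (0.89 each) and Psmc1 (0.88) for Gata3, and Ss18 (0.89), Pbk and Syde1 (0.86 each) for Gata5. Among the members themselves the highest r were 0.63 for Gata4 with Gata5 and for Gata4 with Gata6. Gata5 with Gata6 followed at 0.49 and Gata2 with Gata3 at 0.47. The lowest were -0.82 for Gata1 with Gata6 and -0.73 for Gata1 with Gata4.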

How the data were processed

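Counts of reads per gene, not normalized, were deposited by the authors for 12 libraries. Per the labels' protocols, RNA was isolated with a nanoprep kit and made into libraries by ultra-low-input amplification. The submitters' processing notes name STAR 2.5.0a, Picard, HTSeq 0.6.0, DESeq2 and the mm10 build, without role or order. The annotation release and strand setting are not given in the sources used here. The 5 summary rows per file name no gene and were left out of library sizes and tests. They took the rest of the tallied reads, of which genes held 18.3% to 21.5%. Symbols matched 37607 of 38924 gene identifiers. Exon lengths came from a GRCm38 annotation, and gene positions are from the same build.

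The main test was that of edgeR 4.0.16 in R 4.3.3 (TMM scaling, default expression filter, quasi-likelihood test, all 12 libraries, 1 coefficient per type), two-sided, with Benjamini-Hochberg adjustment over 14170 genes. CPM are TMM-scaled. Alternatives were RLE scaling, no filter, a mean of at least 5 CPM, DESeq2 1.42.0, a block for the replicate number, limma 3.58.1 voom with quality weights, leaving out each library, fitting only the 2 types compared, and thinning all libraries to the size of the smallest. The fits were also run on simulated counts, which held no replicate batch and no outlying library. No outcome of that run is reported or relied on here. Amplified reads carried no molecular identifiers and are not independent molecules, so that counting intervals and floors hold counting error alone. All replicate pairs differed beyond sampling noise.

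The members, the gene lists and the rule for named genes were chosen with earlier results of these data known. The rule names the 6 members, up to 4 genes per list and pair (those called with the largest change, otherwise those with the lowest p), and the 3 genes most like each member by Pearson's r. Some genes that the rule or the lists name are not reported here. Selected genes outside it were named after their values were seen.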

Additional observations from a re-analysis of the deposited data

How the results depend on the processing

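The 36 differences between types (6 members in 6 pairs) were refitted under 20 alternatives. Of 716 refits, 664 kept direction and side of the threshold, 19 lost a call, 26 gained a call and 7 changed sign, and 4 gave no adjusted p. The changes of sign belonged to 3 differences, none of them called. For Gata5, YFP+ minus YFP- cardiac mesoderm, the log2 fold change was -0.58 with limma voom and -0.77 to 1.07 on leaving out each library. For Gata6, YFP- cardiac minus hematopoietic mesoderm ran from -0.0104 to 1.23 on leaving out each library, and endoderm minus hematopoietic mesoderm was 0.0104 with the replicate block, 0.61 with limma voom and -0.56 to 0.68 on leaving out each library.

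The number of members called for YFP+ cardiac mesoderm against endoderm was 2, and it was 1 with the replicate block, 4 with DESeq2 and 0 to 2 on leaving out each library. For YFP- cardiac mesoderm against endoderm it was 1, and it was 0 with the replicate block, 2 without an expression filter, 3 with DESeq2, 3 with limma voom, 3 with only the 2 types compared and 0 to 2 on leaving out each library. For YFP+ cardiac against hematopoietic mesoderm it was 0, and it was 1 without a filter, 1 with a mean of at least 5 CPM, 1 after thinning, 3 with DESeq2 and 0 to 3 on leaving out each library. For YFP- cardiac against hematopoietic mesoderm it was 0, and it was 1 each without a filter, with DESeq2 and with limma voom. The cause of these changes was not tested. It stayed at 1 for endoderm against hematopoietic mesoderm and at 0 between the cardiac fractions under all 20. Over all genes the calls ranged from 0 to 229 for YFP+ against YFP- cardiac mesoderm, where the edgeR count was 0, from 71 to 1180 and from 69 to 1812 for these fractions against endoderm (218 and 185), from 13 to 1817 and from 10 to 1351 against hematopoietic mesoderm (253 and 84), and from 180 to 2246 for endoderm against hematopoietic mesoderm (800).

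To check for pairing, each library's deviations from its type mean were correlated between same-numbered libraries over all genes. The correlation was -0.02 to 0.04 over the 18 pairings, so no pairing was assumed. However, 9 of 12 libraries correlated best with their own number, and the names of the deposited tables carry a date-like string that same-numbered libraries share and whose meaning the labels do not give, so that a shared day or batch is possible. With the replicate block the calls over all genes fell from 253 to 133 and from 84 to 31 for YFP+ and YFP- cardiac against hematopoietic mesoderm, and from 800 to 545 for endoderm against hematopoietic mesoderm. The member calls lost were those of Gata2 in both cardiac fractions against endoderm. In those pairs the calls over all genes fell from 218 to 178 for YFP+ and from 185 to 143 for YFP- cardiac mesoderm. Of the hematopoietic partners, 0 were then called in either fraction against endoderm (1 and 2 without the block), 3 and 0 against hematopoietic mesoderm (4 and 1) and 6 between endoderm and hematopoietic mesoderm (7). Of the cardiac partners, 2 were called in YFP+ cardiac mesoderm against endoderm (4) and 0 against hematopoietic mesoderm (1). The calls of Sox7 in YFP- cardiac and of Krt7 in endoderm against hematopoietic mesoderm were lost. At these depths levels below 0.357 to 0.723 CPM, the range of 3 counts over libraries, could not be told from 0, which limits Gata1 in YFP+ cardiac mesoderm and Gata5 in endoderm.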
